A study of Mus musculus with 4 samples.

Results

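Chemokine receptors were followed in single-cell RNA sequencing of mouse bone through 8 genes: Cxcr2, Cxcr4, Ccr1, Ccr2, Ccr7, Ccr9, Cx3cr1 and Ccrl2. They were taken by gene symbol from the 31053 genes of the count matrices, without a cut on their values, and each was found once. The choice of genes was made with earlier results of these data known. A further 18 genes of the family were followed as a list. The bones came from wild-type C57BL/6J mice under normal cage load (Ctrl, 2 libraries) or hung by the tail for 28 days so that their hind limbs bore no weight (hindlimb unloading, HLU, 2 libraries), with 1 mouse per library. The marrow was washed out of tibia and femur and the bone was digested before cells were captured in droplets, and the sources differ on the age of the mice. Barcodes with 1000 to 40000 unique molecular identifiers (UMIs, 1 per captured transcript) and at most 10% mitochondrial UMIs numbered 32217, and 30119 remained once putative doublets were left out. Levels are given as CPM, the UMIs of a gene per 1000000 UMIs of all cells of a type within a library, and values are given with replicate 1 before replicate 2. Each cell type name stands for cells like that type, by marker genes that did not include the receptors.

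Chemokine receptors are G protein-coupled receptors that guide white blood cells along gradients of small secreted proteins, the chemokines. In bone marrow, CXCR4 and its ligand CXCL12 retain neutrophils and progenitors, whereas CXCR2, the receptor of CXCL1 and CXCL2, draws mature neutrophils out into the blood. CCR2 does the same for monocytes, CCR7 brings dendritic cells and lymphocytes into lymph nodes, and CCRL2 is an atypical receptor that binds chemerin without signalling through G proteins.

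On the mouse genome mm10 the genes lie on 3 chromosomes. Cxcr2 (chr1:74153989-74161246, plus strand) and Cxcr4 (chr1:128588199-128592293, minus strand) are on chromosome 1, and Ccr7 is on chromosome 11 (chr11:99144196-99155077, minus strand). The other 5 are on chromosome 9, where Ccr9 (chr9:123678439-123784330, plus), Ccr1 (chr9:123962124-123968692, minus) and Ccr2 (chr9:124101950-124113557, plus) lie within 435 kb. Ccrl2 (chr9:111054486-111057519, minus) and Cx3cr1 (chr9:119901616-120069879, minus) lie apart from that cluster.

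The promoters of Cxcr2 and Cxcr4 are shown because these receptors have opposed roles in neutrophil release and gave different patterns below. Both sequences are from RefSeq on GRCm38.p6, cover 250 bases before the transcript start and 50 after it, and read 5′ to 3′ on the strand of the gene. Capitals mark AGGAAG, the core bound by Ets factors, in Cxcr2 (chr1:74153744-74154043, plus strand) and the GC box GGGCGG and the TATA box TATAAA in Cxcr4 (chr1:128592250-128592549, minus strand), each searched on both strands.
Cxcr2: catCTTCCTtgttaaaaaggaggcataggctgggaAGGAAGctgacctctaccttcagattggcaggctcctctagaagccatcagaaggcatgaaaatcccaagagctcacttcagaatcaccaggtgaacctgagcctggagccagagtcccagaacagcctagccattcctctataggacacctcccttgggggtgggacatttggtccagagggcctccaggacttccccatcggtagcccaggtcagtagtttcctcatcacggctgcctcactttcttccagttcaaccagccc
Cxcr4: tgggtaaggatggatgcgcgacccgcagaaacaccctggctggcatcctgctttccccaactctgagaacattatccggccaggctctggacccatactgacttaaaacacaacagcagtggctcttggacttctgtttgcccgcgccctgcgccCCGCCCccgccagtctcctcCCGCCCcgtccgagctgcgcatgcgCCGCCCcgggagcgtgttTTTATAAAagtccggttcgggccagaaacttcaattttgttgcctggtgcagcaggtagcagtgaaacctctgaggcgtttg
The Cxcr2 window held 2 Ets cores and neither of the other motifs, and the Cxcr4 window held 3 GC boxes, all on the opposite strand, and a TATA box whose matches on the 2 strands overlap. Of 32851 RefSeq promoters of this length, 35.4% held an Ets core, 35.7% a GC box and 13.6% a TATA box. The table held promoters of 7 of the 8 genes, all except Ccr7. The motifs GCGTG and ACGTG, at the core of hypoxia response elements, were searched as well. GCGTG occurred once each in the windows of Cxcr4, Ccr1 and Cx3cr1 and in 2 of the 3 windows of Ccrl2, and was held by 32.4% of all promoters, and ACGTG occurred once in each of the 3 windows of Ccrl2 and was held by 19.6%.

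The libraries differed in ways that touch every comparison below. HLU replicate 2 stood apart. Summed over 11 genes induced by low oxygen, its level in mature neutrophils was 574 CPM, against 7516 and 8305 CPM in Ctrl and 5673 CPM in HLU replicate 1. Summed over 11 genes induced by tissue dissociation it was 1096 CPM, against 3256 and 3389 CPM in Ctrl and 2660 CPM in HLU replicate 1. Chondrocytes and mesenchymal stromal cells numbered 1489 and 1250 and 1760 and 928 in Ctrl, but 44 and 90 and 57 and 76 in HLU. Transcripts of 10 stromal genes in mature neutrophils summed to 1071 and 996 CPM in Ctrl and 19.1 and 4.87 CPM in HLU. Pairs of libraries shared 13 to 21 cell barcodes, and no pair was a duplicate.

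The 8 receptors differed in the blood cells that held them. Neutrophils held Cxcr2, Ccr1, Ccrl2 and Cxcr4, and monocytes held Ccr2, Cx3cr1 and Ccr1. Dendritic cells held Ccr7, Ccr9, Ccr2 and Cx3cr1, and lymphocytes held Ccr7, Cxcr4 and, in T and NK cells, Ccr2. These levels are a description without a test, since the cell types came from clusters of the same cells. The order of types is given among the 11 blood cell types with at least 20 cells in every library.

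**Figure D1:**
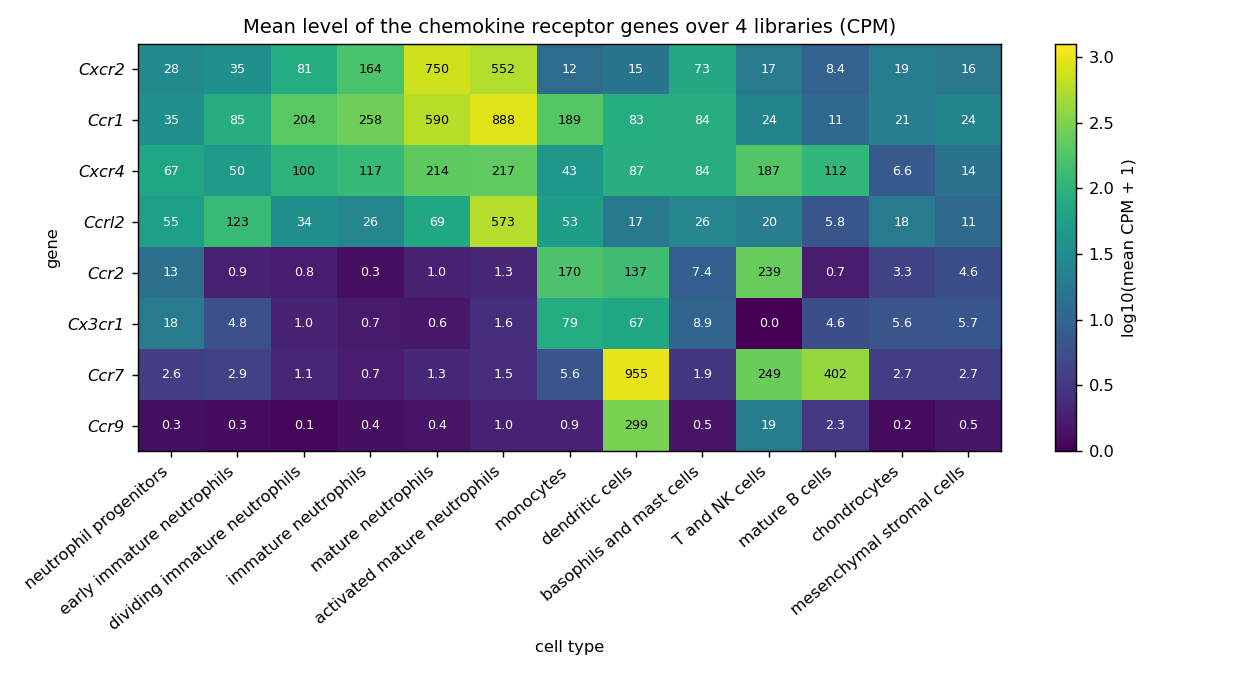
Mean level over 4 libraries of each receptor gene (vertical axis) in 13 cell types (horizontal axis), in CPM as printed and coloured by log10(mean CPM + 1). Cxcr2 and Ccr1 peak in mature and activated mature neutrophils, Ccr7 and Ccr9 in dendritic cells, and Cx3cr1 in monocytes.

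Cxcr2 was higher in mature neutrophils than at any earlier neutrophil stage. In neutrophil progenitors it was at 32.3 and 29.1 CPM in Ctrl and 40.5 and 11.2 CPM in HLU. Immature neutrophils held 152 and 159 CPM in Ctrl and 172 and 173 CPM in HLU. In mature neutrophils it reached 661 and 752 CPM in Ctrl and 778 and 810 CPM in HLU. The ranges over the 4 libraries of immature neutrophils and of both mature groups did not overlap, and neither did those of immature and dividing immature neutrophils, at 56.6 to 110 CPM. Activated mature neutrophils, which also express inflammatory genes such as Tnf and Icam1, held 516 and 405 CPM in Ctrl and 709 and 576 CPM in HLU and overlapped with mature neutrophils. Mature neutrophils made up 22.6% of the cells and held 64.5% of all Cxcr2 UMIs. With every cell thinned to 1000 UMIs, 48.2% to 54.1% of mature neutrophils had a Cxcr2 UMI, against 0.389% to 2.17% of T and NK cells. Unthinned, the shares were 75.7% to 91.0% at a median of 2403 to 4922 UMIs per cell, and 1.03% to 6.45% at 2728.5 to 4055 UMIs.

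Mature neutrophils themselves differed in Cxcr2. The largest of their clusters, led by Retnlg, Mmp9 and Mmp8, held 541 and 590 CPM in Ctrl and 611 and 614 CPM in HLU. A second cluster, led by Ccl6, Retnlg and Csf3r, held 871 and 969 CPM in Ctrl and 1046 and 1156 CPM in HLU. In each library the second cluster was the higher of the pair. The smaller clusters of mature neutrophils, of 691 and 61 cells, averaged 855 and 1172 CPM.

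Ccr1, a receptor of CCL3, CCL5, CCL6 and CCL9, followed a similar course by CPM. It was at 39.3 and 31.9 CPM in the progenitors of Ctrl and at 43.1 and 26.6 CPM in those of HLU. In mature neutrophils it stood at 664 and 699 CPM in Ctrl and 622 and 376 CPM in HLU. In activated mature neutrophils it stood at 1089 and 1105 CPM in Ctrl and 1054 and 305 CPM in HLU. The mean in activated cells depended on the clustering, at 888 CPM here, 497 CPM at resolution 0.5 and 179 CPM without integration. HLU replicate 2 was the lowest library in each of the mature groups, and it was the only one in which the activated cells lay below the mature cells. Monocytes, at 108 to 248 CPM over the 4 libraries, were next after the neutrophil stages from dividing immature onwards. Mature and activated neutrophils together held most Ccr1 UMIs, with 38.1% and 14.5% of the total.

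Among the 11 blood cell types, Ccrl2 was highest in the activated cells by CPM. With cells thinned to 1000 UMIs, 15.2% to 43.5% of these and 3.41% to 13.3% of early immature neutrophils had a Ccrl2 UMI. Unthinned, the shares were alike, at 32.8% to 58.5% and 35.9% to 51.9%. Median depth was 1682 to 3168.5 UMIs per activated cell and 10057 to 17203 UMIs per early immature cell. Outside these types, an unnamed cluster of 1224 cells held it at 82.5 to 586 CPM. Macrophages held it at 171 to 4563 CPM, the last value from 1 cell. In activated mature neutrophils it was at 626 and 1000 CPM in Ctrl and 484 and 183 CPM in HLU. In mature neutrophils it was at 74.6 and 127 CPM in Ctrl and 50.3 and 25.1 CPM in HLU, and in early immature neutrophils at 122 and 169 CPM and at 163 and 37.2 CPM. The activated cells lay above each of the other 10 blood cell types compared below in each library, and their range did not overlap with the next. Unlike Cxcr2 and Ccr1, Ccrl2 was lowest in the middle of the sequence, with dividing immature cells at 22.0 to 41.8 CPM and immature neutrophils at 36.0 and 38.5 CPM in Ctrl and 18.6 and 10.7 CPM in HLU. Within mature neutrophils the cluster led by Ccl6 held 135 and 187 CPM in Ctrl and 71.3 and 29.9 CPM in HLU. That was above the cluster led by Mmp9, at 20.3 and 58.7 CPM in Ctrl and 28.1 and 20.9 CPM in HLU. The smaller clusters, of 691 and 61 cells, averaged 206 and 44.7 CPM.

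Cxcr4 was the most widely spread of the 8 genes. Its mean level lay between 42.7 and 217 CPM in all 11 blood cell types, and no 2 neighbours in the order of levels had ranges apart. In mature neutrophils it was at 204 and 272 CPM in Ctrl and at 356 and 22.9 CPM in HLU. In activated mature neutrophils it was at 228 and 244 CPM in Ctrl and at 386 and 8.86 CPM in HLU. The HLU libraries lay on opposite sides of both Ctrl libraries. Along the neutrophil stages the level in both Ctrl libraries and in HLU replicate 1 was highest in the mature or activated cells, and that of HLU replicate 2 was highest in dividing immature cells, at 33.5 CPM.

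**Figure D2:**
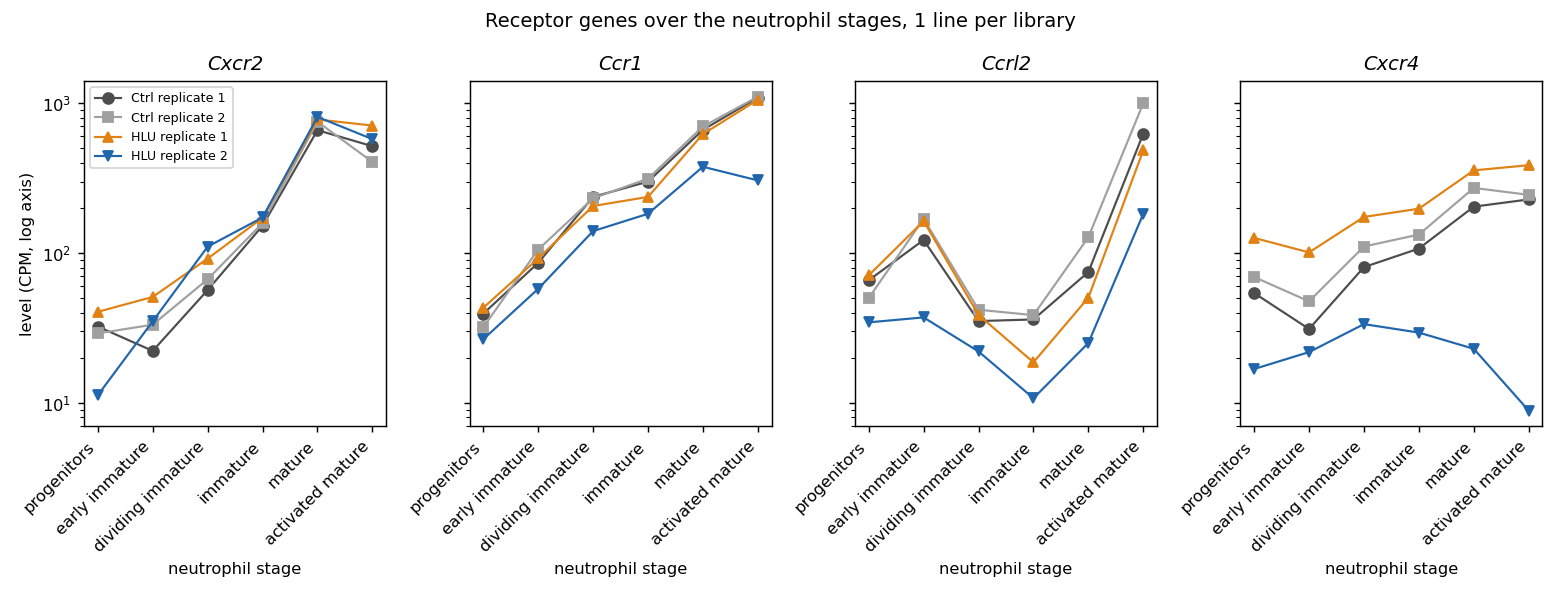
Level in CPM (vertical axis, log scale) of Cxcr2, Ccr1, Ccrl2 and Cxcr4 over 6 neutrophil stages ordered by marker genes (horizontal axis), with 1 line per library. The lines of Cxcr2 lie close together in immature and mature cells, whereas HLU replicate 2 (blue) lies below the other libraries for Ccr1 and Ccrl2 in mature and activated cells and for Cxcr4 at every stage.

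Ccr2, which releases inflammatory monocytes from marrow, was at 194 and 194 CPM in the monocytes of Ctrl and at 239 and 52.9 CPM in those of HLU. T and NK cells held 336 and 114 CPM in Ctrl and 319 and 185 CPM in HLU. Dendritic cells held 161 and 137 CPM in Ctrl and 245 and 6.48 CPM in HLU. The ranges of these 3 types overlapped, and monocytes, the most numerous, held 71.7% of all Ccr2 UMIs. Neutrophils after the progenitor stage held at most 2.55 CPM in any library. With cells thinned to 1000 UMIs, 3.98% to 19.8% of monocytes had a Ccr2 UMI, against 0.0652% to 0.165% of mature neutrophils. Unthinned, the shares were 25.9% to 63.8% at a median of 8593 to 12828 UMIs per cell, and 0.161% to 0.469% at 2403 to 4922 UMIs.

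Cx3cr1, the receptor of fractalkine and a mark of patrolling monocytes, was at 50.9 and 98.7 CPM in the monocytes of Ctrl and at 125 and 42.8 CPM in those of HLU. Dendritic cells held 44.7 and 39.1 CPM in Ctrl and 101 and 84.2 CPM in HLU. Both lay apart from the next of the 11 types, neutrophil progenitors, at 6.46 to 24.6 CPM. Macrophages, which were not among the 11 and number 79 cells, held 0 to 133 CPM. No UMI of Cx3cr1 was found in 667 T and NK cells, which allows a share of up to 0.45% of cells with a UMI at a median of 2728.5 to 4055 UMIs per cell, a limit that pools the 4 libraries and covers counting error only.

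Ccr7 was at 739 and 1346 CPM in the dendritic cells of Ctrl and at 656 and 1078 CPM in those of HLU. T and NK cells held 224 and 304 CPM in Ctrl and 185 and 285 CPM in HLU. Mature B cells held 169 and 334 CPM in Ctrl and 740 and 366 CPM in HLU, and each of the other 8 types held at most 10.5 CPM. The class of mature B cells is uncertain in Ctrl, since 164 of its 241 cells and 230 of its 427 cells there were in a cluster with more stromal transcripts than B cell markers, as described below. In its other cluster Ccr7 was at 599 and 528 CPM in Ctrl and 613 and 236 CPM in HLU. Dendritic cells made up 0.903% of the cells and held 34.7% of all Ccr7 UMIs. The more numerous mature B cells held more of them, 3435 against 2466 UMIs.

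Ccr9, a receptor of CCL25 on plasmacytoid dendritic cells and on T cells in the thymus and gut, was at 340 and 233 CPM in the dendritic cells of Ctrl and at 529 and 96.1 CPM in those of HLU. Its range there lay apart from that of the next type, T and NK cells, at 0 to 54.4 CPM. Dendritic cells held 82.5% of all Ccr9 UMIs.

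Ccr7 and Ccr9 were highest in different sub-clusters of dendritic cells. At the finer resolution of 2, which the levels above do not use, the dendritic cells formed mainly 2 sub-clusters. One had 23 and 30 cells in Ctrl and 52 and 41 cells in HLU. It held Siglech, a marker of plasmacytoid dendritic cells, at 490 and 413 CPM in Ctrl and 586 and 103 CPM in HLU. Plasmacytoid markers summed there to 3495 and 3507 CPM in Ctrl and 4916 and 1257 CPM in HLU, so its cells were not alike across libraries. There Ccr9 was at 504 and 399 CPM in Ctrl and 730 and 201 CPM in HLU, and Ccr7 was at 87.2 to 124 CPM. The other held no UMI of Siglech, held Fscn1, a marker of mature dendritic cells, at 502 to 1496 CPM, and had 13 and 24 cells in Ctrl and 23 and 66 cells in HLU. There Ccr7 was at 2072 and 2956 CPM in Ctrl and 2144 and 1956 CPM in HLU, and Ccr9 was at 0 to 13.6 CPM. In all 4 libraries Ccr7 was higher in the second sub-cluster and Ccr9 higher in the first.

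**Figure D3:**
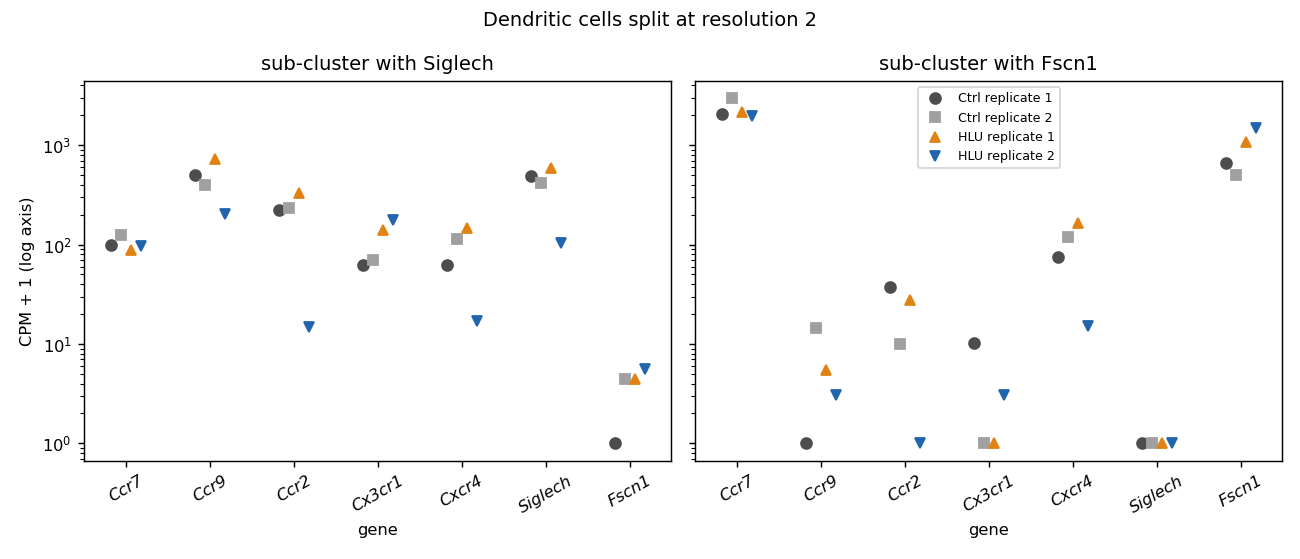
Level as CPM + 1 (vertical axis, log scale) of 5 receptor genes and 2 marker genes (horizontal axis) in 2 sub-clusters of dendritic cells, with 1 point per library. Ccr9 and Ccr2 go with Siglech in the left panel, and Ccr7 goes with Fscn1 in the right panel.

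Detection of 2 receptors in 1 cell was described without a test. The share of cells with UMIs of both genes was divided by the product of the 2 shares, in each library. In mature neutrophils this ratio was 0.993 to 1.07 for Cxcr2 with Cxcr4, a ratio that cannot lie far above 1 where 75.7% to 91.0% of the cells hold Cxcr2. It was 1.02 in each library for Cxcr2 with Ccr1 there, 0.911 to 0.981 for Cxcr2 with Ccrl2 in activated mature neutrophils and 1.09 to 1.27 for Ccr2 with Ccr1 in monocytes. For Ccr2 and Cx3cr1 in monocytes the ratios lay above 1, at 1.59 and 1.41 in Ctrl and 1.19 and 1.86 in HLU. Monocytes joined 2 clusters of unlike depth, with medians of 11310.5 and 22710 UMIs per cell in HLU replicate 2. Cx3cr1 was found in 7.75% to 48.5% of the cells of the first and 44.1% to 76.25% of those of the second. All ratios used unthinned cells, and the part of depth and of this mix in the monocyte ratios was not tested. For Ccr7 and Ccr9 in dendritic cells the ratios lay below 1, at 0.667 and 0.571 in Ctrl and 0.661 and 0.435 in HLU, from 2 to 11 cells with both.

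The genes closest to each receptor in level over 13 cell types were found by Pearson's r of log2(mean CPM + 10). For Cxcr2 they were Ccpg1 (0.97), Nt5c2 (0.97) and Ly6g (0.97), the last a surface marker of neutrophils, and for Ccr1 they were Lilr4b (0.99), Cln3 (0.98) and Lilrb4a (0.97). Cxcr4 was closest to Grk2 (0.94), which encodes a kinase that switches off active receptors, and to Il16 (0.94) and Trim12a (0.93). Ccrl2 was closest to Rab9 (0.89), Il1f9 (0.89), an inflammatory cytokine, and E230032D23Rik (0.88). Among the genes closest to Ccr2 were Ms4a6b (0.98) and Il7r (0.94). Cx3cr1 was closest to Rasa4 (0.95), Pld4 (0.94) and Tnip3 (0.94), Ccr7 to Ppp1r16b (0.98), Il2ra (0.98) and Dpp4 (0.96), and Ccr9 to Gm13546 (0.97), Cox6a2 (0.96) and Dntt (0.96). The 13 points share the 4 libraries and are no independent samples.

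The ligands of the receptors are described by their level in the cell types that held them. Cxcl12, the ligand of CXCR4, averaged 506 CPM in mesenchymal stromal cells, with libraries from 162 to 1016 CPM. Cxcl1, a ligand of CXCR2, was there at 2536 and 3133 CPM in Ctrl and 696 and 9689 CPM in HLU, and in chondrocytes at 1386 and 1615 CPM in Ctrl and 358 and 15495 CPM in HLU. HLU replicate 2 was the highest library in both, and the stromal cells lay above the chondrocytes in the other 3 libraries. Cxcl2, another ligand of CXCR2, averaged 9900 CPM in activated mature neutrophils, and Ccl3, a ligand of CCR1, 2984 CPM, so these cells held both receptor and ligand. Ccl6 averaged 815 CPM in mature and 863 CPM in activated neutrophils, Ccl2, the ligand of CCR2, 1466 CPM in mesenchymal stromal cells (776 to 3386 CPM), and Rarres2, which encodes the chemerin that CCRL2 binds, 320 CPM in endothelial cells and pericytes (68.0 to 644 CPM). Among the 18 other receptors, Cxcr6 and Cxcr3 were highest in T and NK cells, at means of 183 and 112 CPM, and Ackr3, a scavenger of CXCL12, in mesenchymal stromal cells, at 286 CPM (27.1 to 530 CPM).

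HLU and Ctrl libraries were compared within 11 blood cell types, in which 56 pairs of receptor and cell type passed the filter on low counts. In edgeR's quasi-likelihood test 0 of the 56 pairs passed an adjusted p of 0.05, and 10 had an unadjusted p under 0.05. DESeq2 likewise called 0, with 7 under an unadjusted p of 0.05. Over all genes, edgeR gave an unadjusted p under 0.05 for 765 of 8792 in mature and 583 of 6195 in activated mature neutrophils. Counts were 668 of 8120 in immature, 647 of 8575 in dividing immature and 422 of 7990 in early immature neutrophils. Neutrophil progenitors had 371 of 9445, monocytes 417 of 10164, dendritic cells 237 of 6794 and T and NK cells 290 of 5628. Basophils and mast cells had 525 of 7270, and mature B cells 3299 of 9836. Of all genes tested, 1.89% were called in mature neutrophils, 1.1% in activated mature, 0.85% in immature, 0.501% in dividing immature and 0.438% in early immature neutrophils, and 0.191% in neutrophil progenitors. The share was 0.118% in monocytes, 0.147% in dendritic cells, 0.267% in T and NK cells, 0.578% in basophils and mast cells, and 20% in mature B cells. An uncalled difference at 2 against 2 libraries leaves wide intervals, which are given with each gene. Where 1 library is left out below, its group holds a lone library. The log2 difference is then given without a p-value.

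Cxcr2 lay higher in HLU in most types by CPM, some of them with few Cxcr2 UMIs, without passing the test. By CPM, both HLU libraries were above both Ctrl libraries in 8 of 10 types, among them mature, activated mature, immature and dividing immature neutrophils. In these 4 stages 14.4%, 25.1%, 17% and 22.1% of all genes lay so. Such positions, here and below, leave out the TMM scaling factors of the test. For mature neutrophils the factor was 0.766 for HLU replicate 2, 1.13 for HLU replicate 1, and 1.08 and 1.07 for the Ctrl libraries. With levels divided by the factors, HLU replicate 1 lay between the Ctrl libraries in mature neutrophils. HLU replicate 2 lay between them in early immature neutrophils, so the groups overlapped in both types. The log2 difference was 0.41 in mature neutrophils (SE 0.37, 95% interval -0.48 to 1.30, adjusted p = 0.728), 0.47 in activated mature (SE 0.43, adjusted p = 0.686), 0.30 in immature (SE 0.30, adjusted p = 0.795) and 0.72 in dividing immature neutrophils (SE 0.32, adjusted p = 0.667). In mature neutrophils it was 0.69 without HLU replicate 1 and 0.04 without HLU replicate 2. In dividing immature neutrophils it was 0.97 without HLU replicate 1 and 0.45 without HLU replicate 2. The other 4 types were early immature neutrophils (background 32%), dendritic cells (23.4%), basophils and mast cells (29%) and mature B cells (44%). The groups overlapped in monocytes (21.7%) and neutrophil progenitors (32.4%). Some of the 8 types held few Cxcr2 UMIs. Dendritic cells held 3 and 2 UMIs in Ctrl (8.94 and 3.91 CPM) and 16 and 25 UMIs in HLU. Mature B cells held 4 and 12 UMIs in Ctrl (2.06 and 4.73 CPM) and 22 and 26 UMIs in HLU. Basophils and mast cells held 9 and 21 UMIs in Ctrl and 44 and 176 UMIs in HLU. In dendritic cells, basophils and mast cells and mature B cells, a summed list of 11 neutrophil transcripts was higher in HLU replicate 2 than in any other library, and its part in the Cxcr2 values was not tested.

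Cxcr4 set the HLU libraries apart from each other rather than from Ctrl. HLU replicate 1 was the highest and HLU replicate 2 the lowest library in 9 of 11 types, all except monocytes and mature B cells. Of all genes, 23.2% lay so in mature, 19.4% in activated mature, 19.5% in immature, 16% in dividing immature and 10.4% in early immature neutrophils, 10.3% in neutrophil progenitors, 11.8% in dendritic cells, 12.9% in T and NK cells and 8.14% in basophils and mast cells, beside 13.8% in monocytes and 6.7% in mature B cells. The level in HLU replicate 1 was 43.5-fold that in HLU replicate 2 in activated mature neutrophils. With 1 CPM added to each level before genes were ranked, 0.161% of the genes tested there had a ratio as large. The fold was 41.5 in monocytes (0.0394% of genes, ranked likewise), 15.5 in mature neutrophils (0.353%) and 7.28 in T and NK cells (0.995%). Monocytes held 37.7 and 68.5 CPM in Ctrl and 62.9 and 1.52 CPM in HLU, and T and NK cells 175 and 184 CPM in Ctrl and 343 and 47.1 CPM in HLU. The log2 difference between HLU and Ctrl was -0.36 in mature neutrophils (SE 0.94, adjusted p = 0.911), -0.49 in activated mature neutrophils (SE 1.23, adjusted p = 0.893), -0.82 in monocytes (SE 1.33, adjusted p = 0.902) and -0.03 in T and NK cells (SE 0.73, adjusted p = 0.996).

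The direction for Cxcr4 rested on which HLU library was kept. Without HLU replicate 1 the log2 difference was -2.89 in mature neutrophils, -4.53 in activated mature neutrophils, -5.13 in monocytes and -1.93 in T and NK cells. Without HLU replicate 2 it was 0.48 in mature neutrophils, 0.49 in activated mature neutrophils, 0.16 in monocytes and 0.77 in T and NK cells. In HLU replicate 2 the oxygen-regulated list was also lowest, at 737 CPM in activated mature neutrophils against 9640 to 13821 CPM elsewhere, and its part in the Cxcr4 values was not tested. The UMIs of Cxcr2 per UMI of Cxcr4 in mature neutrophils were 3.24 and 2.77 in Ctrl and 2.19 and 35.3 in HLU.

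**Figure D4:**
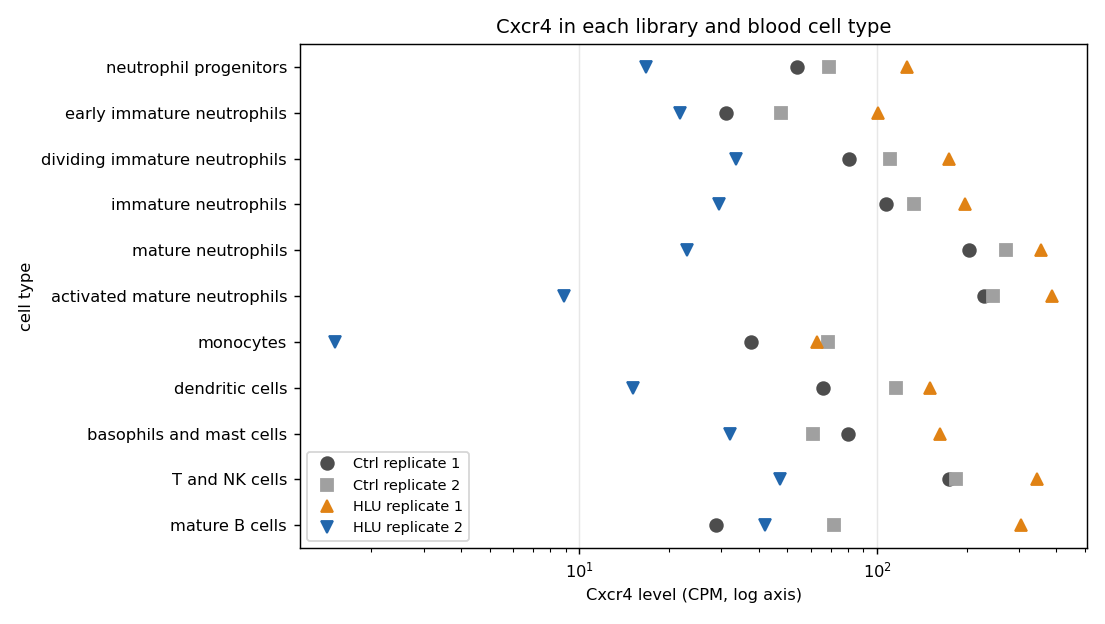
Cxcr4 level in CPM (horizontal axis, log scale) in each of 11 blood cell types (vertical axis), with 1 point per library. HLU replicate 2 is the lowest library in 10 types and HLU replicate 1 the highest in 10 types, with the Ctrl libraries between them in 9.

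Ccrl2 lay lower in HLU in all 11 types by the sign of the fitted difference, without passing the test in any. Both HLU libraries were below both Ctrl libraries in 7 of them, including mature, activated mature and immature neutrophils, where 22.6%, 17% and 19.6% of all genes lay so. The others were monocytes (background 15%), dendritic cells (11.9%), basophils and mast cells (12.3%) and mature B cells (24.8%). In early immature neutrophils (8.27%), neutrophil progenitors (7.46%), T and NK cells (13.8%) and dividing immature neutrophils (14.8%) the groups overlapped. HLU replicate 2 was the lowest library in all 11, which draw on the same libraries. Over all genes tested the median log2 difference lay between -0.0021 (dividing immature neutrophils) and 0.053 (neutrophil progenitors). In an unnamed cluster of 1224 cells outside the 11 types, at 82.5 to 586 CPM, the groups overlapped and HLU replicate 2 was highest. The log2 difference of Ccrl2 was -1.28 in mature neutrophils (SE 0.38, 95% interval -2.21 to -0.36, unadjusted p = 0.0141, adjusted p = 0.315), -1.40 in activated mature neutrophils (SE 0.55, adjusted p = 0.518) and -1.25 in immature neutrophils (SE 0.31, adjusted p = 0.264). Without HLU replicate 2 these were -1.12, -0.98 and -1.12. Without HLU replicate 1 they were -1.53, -1.97 and -1.45. In monocytes, at 57.0 and 63.6 CPM in Ctrl and 55.0 and 35.2 CPM in HLU, the log2 difference was -0.46 (SE 0.30, adjusted p = 0.851). It was -0.78 without HLU replicate 1 and -0.20 without HLU replicate 2. Without integration of the libraries it was 0.18. The dissociation-induced list was lower in both HLU libraries than in both Ctrl libraries in the 3 neutrophil groups, and its part in the Ccrl2 values was not tested.

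Ccr1 lay below both Ctrl libraries in both HLU libraries in 5 of 10 types, namely mature, activated mature, immature and dividing immature neutrophils and monocytes, with backgrounds of 22.6%, 17%, 19.6%, 14.8% and 15%. The log2 difference was -0.28 in mature neutrophils (SE 0.31, adjusted p = 0.780), -0.81 in activated mature neutrophils (SE 0.57, adjusted p = 0.623) and -0.82 in monocytes (SE 0.33, unadjusted p = 0.0461, adjusted p = 0.851). In the activated cells it depended on the library left out, at -1.65 without HLU replicate 1 and -0.27 without HLU replicate 2. In monocytes the values without HLU replicate 1 and without HLU replicate 2 were -1.16 and -0.56. Basophils and mast cells went the other way, at 66.1 and 66.7 CPM in Ctrl and 101 and 101 CPM in HLU (log2 difference 0.43, SE 0.34, adjusted p = 0.795). In that type 29% of all genes lay higher in both HLU libraries than in both Ctrl libraries.

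**Figure D5:**
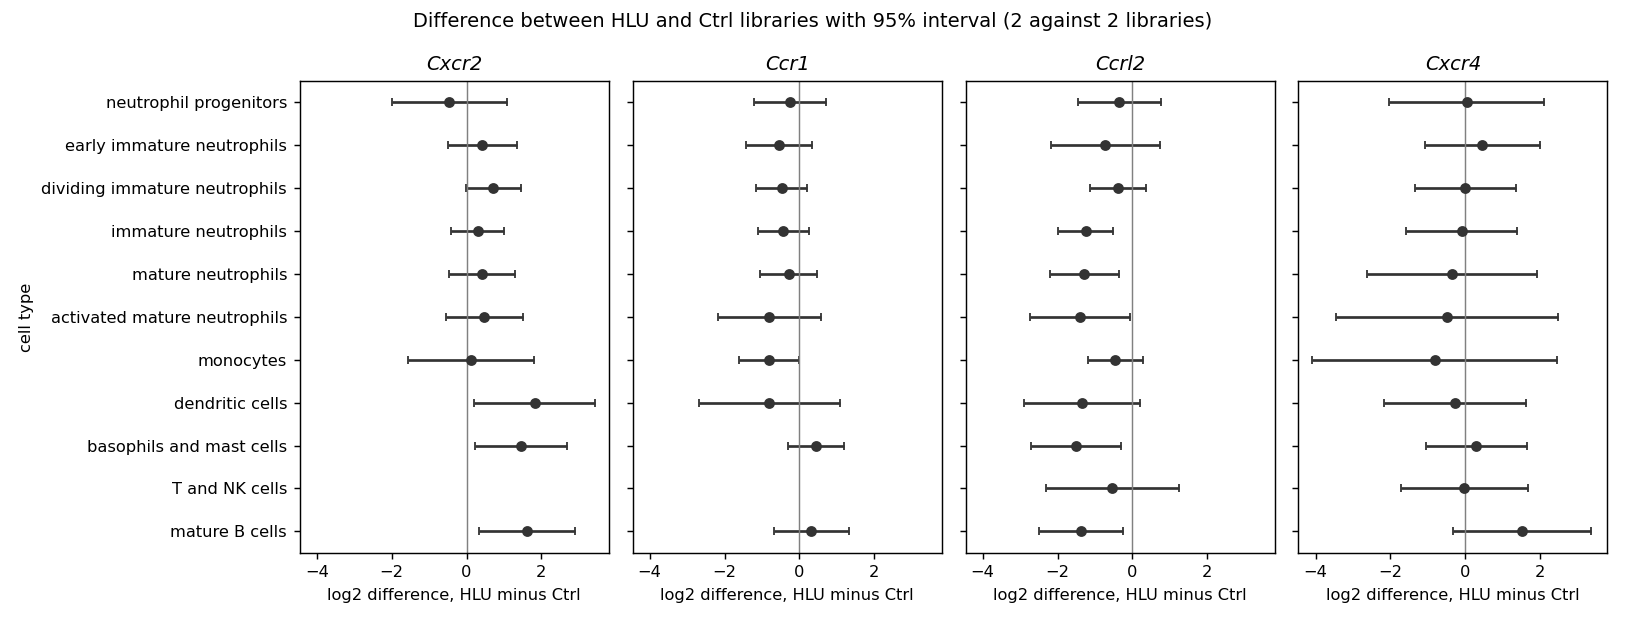
Log2 difference, HLU minus Ctrl (horizontal axis), of Cxcr2, Ccr1, Ccrl2 and Cxcr4 in each blood cell type (vertical axis). Points are edgeR estimates from 2 against 2 libraries and bars are 95% intervals, those of Cxcr4 in monocytes reaching from -4.08 to 2.45, and pairs without a point did not pass the filter on low counts.

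For Ccr2 and Cx3cr1 in monocytes and Ccr9 in dendritic cells the direction again rested on which HLU library was kept. Ccr2 in monocytes had a log2 difference of -0.47 (SE 0.65, adjusted p = 0.891), which was -1.88 without HLU replicate 1 and 0.23 without HLU replicate 2. Cx3cr1 in monocytes differed by 0.12 (SE 0.55, adjusted p = 0.967), by -0.82 without HLU replicate 1 and by 0.66 without HLU replicate 2. In dendritic cells both HLU libraries held more Cx3cr1 than both Ctrl libraries, as did 23.4% of all genes (log2 difference 1.03, SE 0.38, unadjusted p = 0.0258, adjusted p = 0.972). Ccr7 and Ccr9 in dendritic cells differed by -0.38 (SE 0.42, adjusted p = 0.972) and by -0.0019 (SE 0.68, unadjusted p = 0.998). The Ccr9 value was -1.69 without HLU replicate 1 and 0.76 without HLU replicate 2. HLU replicate 2 also held the most cells of the sub-cluster with Fscn1, 66 of 107 dendritic cells. In the sub-cluster with Siglech, plasmacytoid markers summed to 1257 CPM in HLU replicate 2, against 3495 to 4916 CPM in the other libraries. The part of these differences in the Ccr9 values was not tested.

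Mature B cells allowed only a limited comparison, because their 2 clusters were not alike between groups. One had 77 and 197 cells in Ctrl and 365 and 308 in HLU, with 8 B cell markers summing to 5438 to 7478 CPM in every library. In the other the markers summed to 243 and 514 CPM in Ctrl and 2829 and 1865 CPM in HLU, and the stromal list to 18413 and 13407 CPM in Ctrl and 5.02 and 3.92 CPM in HLU. Over both clusters the log2 difference was 0.87 for Ccr7 (SE 0.43, adjusted p = 0.205) and 1.51 for Cxcr4 (SE 0.79, adjusted p = 0.229). Without HLU replicate 2 these were 1.27 and 2.29. Without HLU replicate 1 they were 0.28 and -0.54, and without Ctrl replicate 2 they were 1.36 and 2.23. In the first cluster alone Ccr7 was at 599 and 528 CPM in Ctrl and 613 and 236 CPM in HLU (-0.66, SE 0.43, adjusted p = 0.943). Cxcr4 there was at 156 and 220 CPM in Ctrl and 430 and 75.9 CPM in HLU (0.19, SE 0.64, adjusted p = 0.992). For Ccr7 the sign over both clusters was thus opposite to that in the cluster with B cell markers in every library.

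The difference of the HLU effect between cell types was tested with the library as a block. None of 5 receptors passed between immature and mature neutrophils, where 0.022% of 9079 genes were called, and none of 7 between mature neutrophils and monocytes, where 0.14% of 10683 genes were called. In these 2 tests edgeR gave the receptors 1 unadjusted p under 0.05, for Ccrl2, whose difference was 0.91 higher in monocytes than in mature neutrophils on the log2 scale (SE 0.35, adjusted p = 0.670). The difference was also fitted with DESeq2, whose values for Ccrl2 are not given here.

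Few genes around the receptors were called. Among the 18 other receptors, Ackr3 fell in mature, activated mature and immature neutrophils (edgeR adjusted p = 0.0307, 0.0220 and 0.0210). It was at 17.5 and 23.3 CPM in the mature neutrophils of Ctrl and at 0.510 and 0 CPM in those of HLU. Of 20 ligand genes, Cxcl1 fell in immature, dividing immature and early immature neutrophils and in basophils and mast cells, for example from 43.7 and 63.9 CPM to 1.51 and 3.63 CPM in immature neutrophils (adjusted p = 0.0177). Both are transcripts of stromal cells at far higher levels, and the stromal list moved with them in each of these types, at 500 and 528 CPM in Ctrl and 12.4 and 7.27 CPM in HLU in immature neutrophils. Its part in them was not tested. A list of 15 G protein and effector genes also included the receptor genes Fpr1 and Fpr2. Of this list and of 13 kinases, arrestins and RGS proteins, edgeR called 0 in the 10 types other than mature B cells. Of 239 tests there, 26 had an unadjusted p under 0.05, and the counts over all genes of these types are given above. The median log2 difference of the G protein list in mature neutrophils was 0.36, beside 0.05 over all genes tested, and that of the kinase list 0.32. Over the 10 types these medians ran from -0.23 to 0.80 and from -0.21 to 0.69. Both were lowest in T and NK cells and highest in activated mature neutrophils. In mature B cells, with 20% of all genes called, Cxcr5, Prex1, Dock2 and Rac2 were called higher. Ackr2, Ackr3, Cxcl1, Cxcl12, Ccl2, Ccl7, Cx3cl1, Grk5, Rgs3 and Rgs16 were called lower there, beside the stromal list at 15350 and 10003 CPM in Ctrl and 7.79 and 7.31 CPM in HLU.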

How the data were processed

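Single cells from the bones of 2 Ctrl and 2 HLU mice were captured with the 10x Chromium 3′ v3.1 chemistry. The authors deposited raw UMI counts per gene and barcode, made against mm10. The submitters' processing notes name Cell Ranger 6.0.0 and Seurat 4.1.0. The libraries held 10000 to 10003 barcodes and 47819046 to 99849070 UMIs, and the number of UMIs behind a value limits its precision. No deposited cell annotation was used, so the cell type names are rebuilt here.

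Barcodes with 1000 to 40000 UMIs and at most 10% mitochondrial UMIs were kept. Libraries were integrated in Seurat 5.3.0 (R 4.3.3) with 2000 variable genes, 30 anchor dimensions and 50 principal components, and clustered at resolution 1 into 31 clusters. The 8 receptors were left out of these genes and of the marker genes. A cluster was named where at least 3 markers of a type were raised by 1 on the log2 scale and found in 10% of its cells, and where the 3 most raised averaged 1.95 or more, a limit set with the clusters in view. The remaining 4 clusters stayed unnamed. Scrublet, run through scanpy 1.11.5, marked 2098 barcodes as doublets, which were left out of the sums.

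UMI counts were summed per library and cell type, for types with at least 20 cells in every library. HLU was compared with Ctrl by the quasi-likelihood test of edgeR 4.0.16 with TMM factors and filterByExpr, and p-values were adjusted over all genes tested in a type (Benjamini-Hochberg, threshold 0.05). Each library is 1 mouse, and p-values measure the spread between libraries. Shares of cells were also given with each cell thinned to 1000 UMIs. Sums were made in Python 3.11.15 (pandas 2.3.3, scipy 1.17.1, numpy 2.4.6). All 8 receptors are named, of the lists only genes past the threshold and the ligands by level, and for like patterns the 3 genes of highest r among those reaching 50 CPM in a type, of which 1 is not reported here. In mature B cells, where many listed genes passed, those named go beyond the 5 per list set for the other types. The members, lists and tests were chosen with earlier results of these data known, and the joint detection of Ccr7 and Ccr9 was added after their levels were seen. Alternatives were DESeq2 1.42.0, other size factors, no filter on low counts, a replicate block, each library left out, doublets kept, a haemoglobin limit of 0.2%, cells with at least 2000 UMIs, other resolutions and no integration.

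In simulated data for mature neutrophils, with 200 of 8792 genes changed by 2 on the log2 scale, the test called 26 of them and 0 others at the spread estimated for each gene, and 188 and 8 others at a dispersion of 0.01. For monocytes, with 10164 genes, it called 68 and 8 others, and 188 and 5 others.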

Additional observations from a re-analysis of the deposited data

Results flagged for a closer look

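Ccr1 lay in opposite directions in different cell types. In basophils and mast cells both HLU libraries were above both Ctrl libraries, with a log2 difference of 0.43, as were 29% of all genes there. In mature, activated mature, immature and dividing immature neutrophils and in monocytes both lay below, as did 22.6%, 17%, 19.6%, 14.8% and 15% of all genes. None of these differences passed the test within its cell type, and the difference between basophils and mast cells and the other types was not tested.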

How the results depend on the processing

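With 2 libraries in each group, of which HLU replicate 2 stood apart, the libraries limited the comparisons more than any other setting tried. Fits with a library left out tested 58 pairs without HLU replicate 1, 64 without HLU replicate 2 and 65 without either Ctrl library. In these fits a group holds a lone library, so the spread comes from the other group alone. Their counts of calls below, for receptors and for all genes, therefore cannot test HLU against Ctrl. No share of all genes called stands beside the receptor counts. Of the 56 pairs of receptor and cell type 0 were called. The number was 1 with doublets kept and 1 with the replicate block (Cxcr2 in mature B cells in both), 7 of 87 without a filter on low counts, and 0 to 32 with a library left out: 32 without HLU replicate 1, 28 of them lower in HLU, 4 without HLU replicate 2, 3 without Ctrl replicate 2 and 0 without Ctrl replicate 1. For the difference between cell types 0 receptors were called, and 0 to 6 with a library left out, the 6 without HLU replicate 1. In mature neutrophils 166 genes were called, against 808 without the filter, 272 in DESeq2 and 36 to 2913 with a library left out, the highest without HLU replicate 1 and the lowest without Ctrl replicate 2.

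Replicate numbers were used as a block in one alternative. Deviations from the group means of libraries with the same number had an r of 0.0068 in mature neutrophils, 0.051 in immature neutrophils and 0.0050 in monocytes, so the numbers were not shown to pair the libraries. The block gave the 1 call above and turned Cx3cr1 in monocytes to -0.0025.

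Among levels, Cxcr2 in mature neutrophils averaged 750 CPM, and 667 CPM with the clusters nearest the naming limit moved, an alternative chosen after seeing the data as was the fit of single clusters, 647 CPM without integration and 831 CPM at resolution 2. The cluster just under the naming limit for mature neutrophils, led by Ldhc and Tnfaip6, held 187 and 264 cells in Ctrl and 259 and 13 in HLU. Ccr1 in activated mature neutrophils averaged 888 CPM, and 179 CPM without integration and 497 CPM at resolution 0.5. Ccr7 in dendritic cells averaged 955 CPM, and 441 CPM at resolution 2.

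The mean ratio of joint detection for Ccr2 and Ccr1 in monocytes was 1.16, and 1.32 both without integration and at resolution 2. For Ccr7 and Ccr9 in dendritic cells it was 0.584, and 0.816 at resolution 2. For Cxcr2 and Ccr1 in mature neutrophils it was 1.02, and 1.01 in cells with at least 2000 UMIs, 1.02 with doublets kept, 1.02 with near clusters moved, 1.03 without integration and 1.01 at resolution 2. For Cxcr2 and Ccrl2 in activated mature neutrophils it was 0.953, and 0.723 without integration, 1.08 at resolution 0.5 and 0.906 at resolution 2. For Cxcr2 and Cxcr4 in mature neutrophils it was 1.03, and 1.08 without integration.

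Some log2 differences changed sign. Without integration Ccr2 in monocytes was 0.038, Ccrl2 in monocytes 0.18, Ccr7 in mature B cells -0.54 and Ccr9 in dendritic cells 0.090. Ccr9 in dendritic cells was also 0.0061 with the haemoglobin limit, 0.036 without the filter and 0.059 at resolution 0.5, and Cxcr4 in T and NK cells was 0.0019 with doublets kept. With a library left out, Cxcr4 ranged from -2.89 to 0.48 in mature and -4.53 to 0.49 in activated mature neutrophils, -5.13 to 0.16 in monocytes, -1.93 to 0.77 in T and NK cells and -0.54 to 2.29 in mature B cells. Ccr2 in monocytes ranged from -1.88 to 0.23, Cx3cr1 in monocytes from -0.82 to 0.66, Ccr7 in dendritic cells from -0.81 to 0.10 and Ccr9 there from -1.69 to 0.76. The cause was not tested. Of the named log2 differences, 236 values under alternatives that kept all libraries gave the same direction and side of the threshold, 3 passed it and 9 changed sign. With a library left out, 12 changed sign.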

Other observations

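Ccrl2 was also found outside the cell types compared. Macrophages, which number 6 and 13 cells in Ctrl and 1 and 59 in HLU, held it at 171 and 419 CPM in Ctrl and at 4563 and 214 CPM in HLU, the value of 4563 CPM being 64 UMIs in 1 cell. A cluster of 1224 cells that could not be named, led by Clec4n, Creg1 and Pdcd1lg2, held it at 82.5 and 533 CPM in Ctrl and 122 and 586 CPM in HLU. In the erythroid cells of HLU replicate 2 it was at 143 CPM, from 198 UMIs in 126 of 375 cells.

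Some levels of Cx3cr1 outside monocytes and dendritic cells rested on a single cell. In the chondrocytes of Ctrl replicate 1, 255 of its 274 UMIs were in 1 cell. In the mature B cells of the same library all 34 UMIs were in 1 cell.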
